A study of Homo sapiens with 12 samples.

Results

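PCGF5 and the other core genes of Polycomb repressive complex 1 (PRC1) were followed across 3 knockdowns of citrate-handling genes in MiaPaCa-2, a human pancreatic cancer cell line. The group holds 10 of the 70116 genes listed in the count table: the 6 PCGF genes (PCGF1, PCGF2, PCGF3, PCGF5, PCGF6 and BMI1, which encodes PCGF4), the catalytic pair RING1 and RNF2, and the pair RYBP and YAF2. PCGF5 was chosen by its log2 fold change in siACO1 against siControl, where it was among the largest falls. Its values in that group are therefore given as a description with no test, while the other members were taken for their place in the complex. Of the 10 members, 8 passed the filter on low counts and were tested, and RING1 and PCGF2 did not pass it.

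The libraries came from MiaPaCa-2 cells transfected with a control siRNA (siControl) or with siRNA against SLC25A1, the mitochondrial citrate carrier (siSLC25A1), ACLY, the ATP citrate lyase that makes cytosolic acetyl-CoA (siACLY), or ACO1, the cytosolic aconitase that also acts as an iron-regulatory protein (siACO1). Each of the 4 groups had 3 libraries of poly(A) RNA, and all shared the same cell line. The labels give neither the siRNA sequences nor the time of harvest or a nutrient condition, and do not say whether replicates were separate cultures, so p-values measure the spread between these libraries, which may be technical. Library totals ran from 24159424 to 43792811 counts. Levels are given as CPM, counts relative to the library total after scaling by TMM, the trimmed mean of M values.

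The siRNAs lowered their targets, with log2 fold changes of -3.51 for SLC25A1, -3.79 for ACLY and -4.74 for ACO1, each in its own knockdown. SiACO1 replicate 3 stood apart from its replicates, with a chi-square per degree of freedom of 10.69 and 11.28 against the other 2 siACO1 libraries, which differed from each other by 2.24. Results in siACO1 are therefore given with and without it where they rest on it. The epithelial keratins KRT8 and KRT18 were at 2278 and 1325 CPM in siControl, while EPCAM and CDH1, markers of epithelial cells, had 5 and 7 counts over the 12 libraries. The keratin KRT19 was at 88.5 CPM in siControl, 121 in siSLC25A1, 141 in siACLY and 52.0 in siACO1. VIM, a mesenchymal marker with 24.4% of its exon bases overlapped by other genes, was at 3561 CPM in siControl. Defining markers of other cell types were at or near 0: PTPRC (blood) and INS (islet) had 0 counts, ALB (liver) 5, PECAM1 (endothelium) 19 and COL1A1 (fibroblasts) 52.

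PRC1 is an E3 ligase that places ubiquitin on histone H2A and helps to keep developmental genes silent. Its catalytic core pairs RING1 or RNF2 (RING1A or RING1B) with a single PCGF protein, and the PCGF protein decides which partners join. In canonical PRC1, PCGF2 or BMI1 sits with CBX proteins, which read the methylated histone H3 made by Polycomb repressive complex 2 (PRC2), and with PHC proteins. In the variant complexes PCGF1, PCGF3, PCGF5 or PCGF6 sits with RYBP or YAF2, which stimulate the ligase, and PCGF5 shares its partners AUTS2, FBRS and casein kinase 2 with its close relative PCGF3.

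The data show a broad range among the members. PCGF5 was at 24.3% of its control level in siACO1, fell in siACLY and did not pass the test in siSLC25A1. BMI1 and PCGF6 fell in both siACLY and siACO1, and PCGF1 fell in siSLC25A1. RNF2 rose slightly in siACLY, and PCGF3, RYBP and YAF2 did not pass the test in any knockdown against siControl.

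PCGF5 (ENSG00000180628.15) lies on chromosome 10, from 91163012 to 91284331 on the plus strand of GRCh38, and is protein-coding. In siControl its level was 7.87, 9.27 and 8.72 CPM in replicates 1 to 3, a mean of 8.62 ± 0.704 CPM (SD, n = 3). In siSLC25A1 it was 11.0, 9.90 and 9.24 CPM, and the highest control library stood above the lowest siSLC25A1 library, so these groups overlapped. In siACLY it was 5.21, 5.39 and 4.90 CPM (5.17 ± 0.251), all below every control library. In siACO1 it was 2.37, 1.53 and 2.38 CPM (2.09 ± 0.489), from 59, 47 and 74 counts, and these were the lowest of the 12 libraries. In bulk RNA, less transcript per cell and fewer cells with the transcript cannot be told apart.

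The order of the PCGF5 levels was therefore siSLC25A1, siControl, siACLY and siACO1, from high to low. The neighbours at the top, siSLC25A1 and siControl, did not differ past the threshold (log2 fold change 0.23, SE 0.12, 95% interval -0.01 to 0.47; adjusted p 0.189, edgeR quasi-likelihood test with Benjamini-Hochberg adjustment, as for all adjusted p-values of single genes here). SiACLY was lower than siControl by 0.74 on the log2 scale (log2 fold change -0.74, SE 0.12, adjusted p 2.29e-05); this comparison shares its control libraries with the one that chose the gene. The 2 groups compared in siSLC25A1 against siACLY hold no library of the comparison that chose PCGF5. The SE and adjusted p there still rest on a spread estimated over all 12 libraries, which include those. In that comparison PCGF5 was higher in siSLC25A1 by 0.96 (SE 0.12, 95% interval 0.71 to 1.22, adjusted p 5.38e-07). All 3 siSLC25A1 libraries lay above all 3 siACLY libraries.

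In siACO1 the log2 fold change of PCGF5 against siControl was -2.05 (SE 0.14, 95% interval -2.34 to -1.75), given without a test. It ranked 26 among the 16197 tested genes ordered from the largest fall, with -2.05 for the gene before it and -2.04 for the gene after it. Without siACO1 replicate 3 it was -2.17, and without replicate 2, the lowest library, it was -1.86. Against siSLC25A1 and siACLY, PCGF5 in siACO1 was lower by 2.27 and 1.31 on the log2 scale, again as a description. KRT8, KRT18 and KRT19, the keratins used to check the cells, were also lower in siACO1 (log2 fold changes of -0.83 and -0.78 for KRT8 and KRT18). Their part in the PCGF5 value was not tested.

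**Figure D1:**
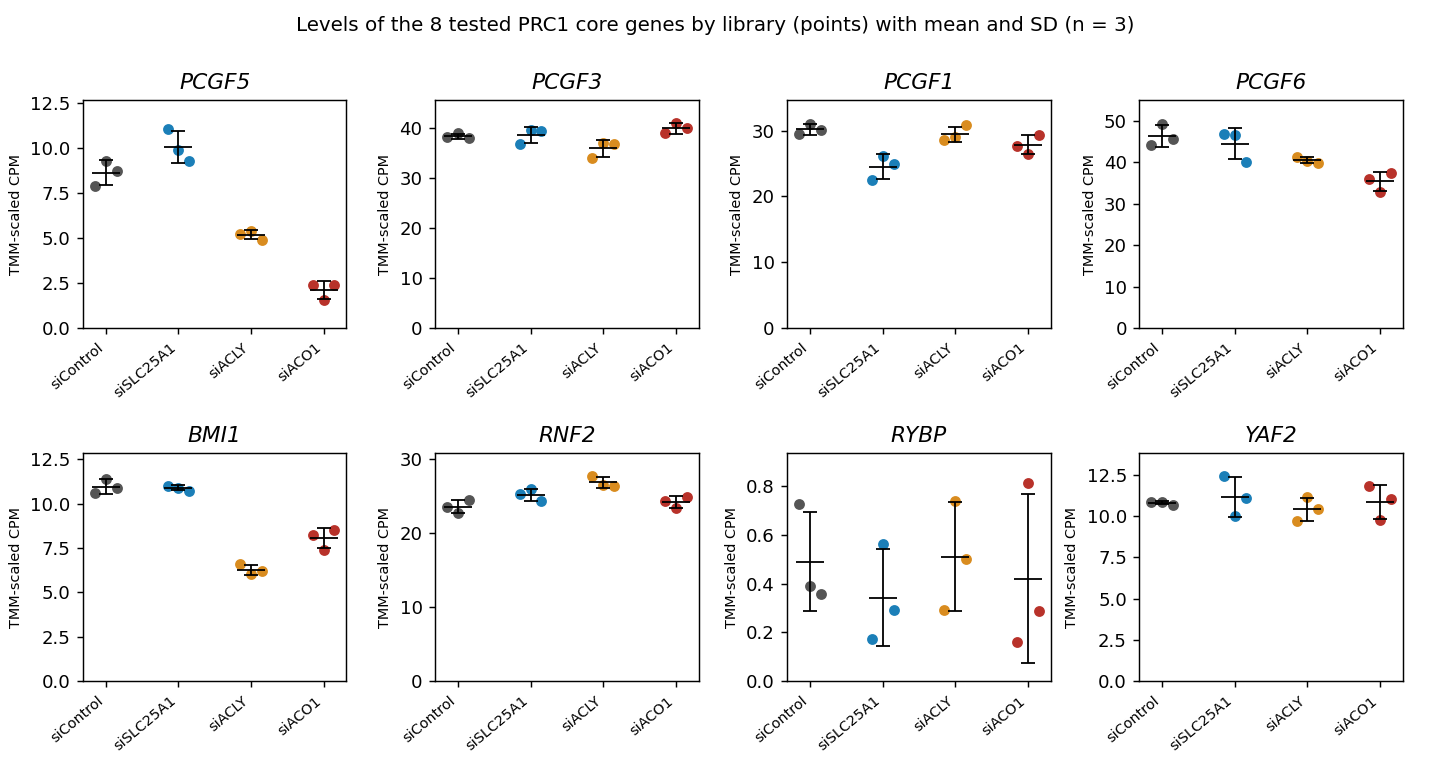
Level of each of the 8 tested core genes in TMM-scaled CPM (y axis, from 0, with its own scale per gene) in the 12 libraries by group (x axis); points are libraries and bars are the mean and SD of 3. PCGF5 steps down from siControl to siACLY and siACO1 with no overlap, BMI1 is lowest in siACLY, and the RYBP libraries scatter below 1 CPM.

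PCGF3 (ENSG00000185619, chromosome 4, 705748 to 770640, plus strand), the closest relative of PCGF5, did not pass the test against siControl in any knockdown. It was at 38.1, 38.9 and 38.1 CPM in siControl and between 38.9 and 41.1 CPM in siACO1, and these groups overlapped. Its log2 fold changes against siControl were 0.01 in siSLC25A1, -0.10 in siACLY (95% interval -0.21 to 0.01) and 0.06 in siACO1 (-0.05 to 0.17), with adjusted p-values of 0.938, 0.17 and 0.426. Only between siACLY and siACO1 did it pass the threshold, at -0.16 (adjusted p 0.0221), a call that was lost without siACLY replicate 1 (-0.12) or siACO1 replicate 2 (-0.14).

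PCGF1 (ENSG00000115289.14, chromosome 2, 74505043 to 74508580, minus strand), the PCGF protein of the complex that KDM2B brings to unmethylated CpG islands, fell in siSLC25A1. Its level was 29.5, 31.1 and 30.1 CPM in siControl and 22.5, 26.2 and 25.0 CPM in siSLC25A1, so all 3 siSLC25A1 libraries were below the controls. The log2 fold change was -0.30 (SE 0.07, adjusted p 0.00126), against -0.04 (0.674) in siACLY and -0.12 (0.165) in siACO1. Compared directly, PCGF1 was lower in siSLC25A1 than in siACLY by 0.26 (log2 fold change -0.26, adjusted p 0.00273) and than in siACO1 by 0.18 (-0.18, adjusted p 0.0276). The second of these calls was lost without siSLC25A1 replicate 1 (-0.12), siACO1 replicate 1 (-0.19) or siACO1 replicate 3 (-0.14).

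PCGF6 (chromosome 10, 103302796 to 103351144, minus strand), which sits in the complex with MGA, MAX, E2F6 and L3MBTL2, was lowest in siACO1. It was at 44.1, 49.2 and 45.5 CPM in siControl, 41.3, 40.3 and 39.8 CPM in siACLY and 35.9, 32.9 and 37.3 CPM in siACO1. These groups did not overlap, whereas siSLC25A1 (46.9, 46.5 and 40.1 CPM) overlapped siControl. The log2 fold change was -0.39 in siACO1 (SE 0.06, adjusted p 1.22e-05; -0.43 without siACO1 replicate 3) and -0.19 in siACLY (SE 0.06, adjusted p 0.0145). The siACLY call was lost without siControl replicate 2 (-0.15, adjusted p 0.108) and under library totals (-0.15, adjusted p 0.0557). Of the 31-base stretches of PCGF6 transcripts 22% also occur elsewhere, mainly in PCGF7P, so its counts are uncertain to that extent.

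BMI1 (chromosome 10, 22321211 to 22331484, plus strand), a PCGF protein of canonical PRC1 known for silencing the CDKN2A locus, fell furthest in siACLY. Its level was 10.6, 11.4 and 10.9 CPM in siControl, 6.59, 6.05 and 6.21 CPM in siACLY, and 8.25, 7.41 and 8.51 CPM in siACO1. All siACLY libraries lay below all siACO1 libraries, and these below all controls, while siSLC25A1, at 11.0, 10.9 and 10.7 CPM, overlapped siControl. The log2 fold change was -0.80 in siACLY (SE 0.10, adjusted p 1.07e-07) and -0.45 in siACO1 (SE 0.09, adjusted p 0.000329; -0.49 without siACO1 replicate 3). Between these knockdowns it differed by -0.35 (siACLY minus siACO1, SE 0.10, adjusted p 0.00512), the opposite order to PCGF5. The readthrough gene COMMD3-BMI1 covers 23.3% of the exon bases of BMI1 and was listed at 0 in every library. How reads from the shared bases were counted is not given, so the BMI1 counts are uncertain to that extent.

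The 3′ UTRs of the members were searched for AACTAAC and TCTACGT, 2 heptamers that had been looked for in earlier work on these data. The search covered the transcript strand of the principal transcript of each gene in GENCODE 29, and the heptamers do not overlap each other. The 3′ UTR of PCGF5, 6015 bases long, holds neither, and BMI1 is the only member of the 10 with a match. The BMI1 match is 1 AACTAAC at position 339 of its 1942-base 3′ UTR, shown here with 10 bases on each side and the heptamer in capitals, at chr10:22329871-22329897 (GRCh38, plus strand).
BMI1 3′ UTR: tgttaatctcAACTAACgcctacatta
AACTAAC occurred in 6.16% and TCTACGT in 1.83% of the 3′ UTRs of 11782 tested genes. Of the 456 with a 3′ UTR of 5000 to 7000 bases, like that of PCGF5, 27% held at least 1 of them. A match is a description of the letters and no more.

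RNF2 (chromosome 1, 185045364 to 185102608, plus strand), the catalytic RING1B, was at 23.5, 22.7 and 24.4 CPM in siControl. In siACLY it was at 27.7, 26.5 and 26.4 CPM, above all controls, and rose by 0.19 on the log2 scale (SE 0.06, adjusted p 0.0143). This call was lost without siControl replicate 2 (0.16, adjusted p 0.0773) or siACLY replicate 1 (0.16, adjusted p 0.0916). The log2 fold changes in siSLC25A1 and siACO1 were 0.10 and 0.04, with adjusted p-values of 0.304 and 0.685.

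RING1, the other catalytic subunit (chromosome 6, 33208495 to 33212722), was listed at 0 in all 12 libraries, so its share of the catalytic pair could not be computed. PCGF2 (MEL18; chromosome 17, 38733897 to 38749817) had 1 count, in siACLY replicate 3. Both lie among genes with few counts: within 500 kb on each side, 26 of 37 protein-coding genes around RING1 and 10 of 21 around PCGF2 had under 12 counts over the 12 libraries, against 32% of all protein-coding genes listed. Among these neighbours were genes that all cells use. RPS18, a ribosomal protein gene near RING1, had 20 counts in total, and PSMB3, a proteasome gene near PCGF2, had 6, while RPL23, also near PCGF2, had 287195. It can be said only that RING1 and PCGF2 were listed at or near 0.

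RYBP (chromosome 3, 72371825 to 72446621) and YAF2 (chromosome 12, 42157104 to 42238349), the paralogs that occupy the CBX-binding face of RNF2 in variant PRC1, were measured with very different depth. RYBP had between 4 and 26 counts in a library and was at 0.726, 0.389 and 0.357 CPM in siControl. Its 95% interval in siACO1 ran from -1.23 to 0.83 on the log2 scale, so at this depth neither a fall nor a rise within those limits can be excluded. YAF2 was at 10.9, 10.9 and 10.7 CPM in siControl and at 11.8, 9.79 and 11.0 CPM in siACO1, which overlapped. Its log2 fold changes against siControl lay between -0.06 and 0.05, with 95% intervals inside -0.26 to 0.25 and adjusted p-values between 0.668 and 0.971.

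Counted over the members, 1 of 8 was called in siSLC25A1 (PCGF1), where 19.6% of all 16197 tested genes were called (10.3% higher and 9.27% lower). In siACLY 4 of 8 were called, 3 lower (PCGF5, BMI1 and PCGF6) and 1 higher (RNF2), where 36.7% of all genes were called (18.4% higher and 18.3% lower). In siACO1, leaving PCGF5 out, 2 of 7 were called, both lower (BMI1 and PCGF6), where 37.1% of all genes were called (17.8% higher and 19.3% lower). In siSLC25A1 and siACLY, PCGF5 is counted among the 8, and those comparisons use the control libraries of the one that chose it. With so few genes the called shares do not set the members apart from the background. Their median log2 fold changes were 0.00, -0.08 and -0.12, beside -0.004, 0.008 and 0.006 over all tested genes. Without siControl replicate 2, the siACLY count was 2. Under library totals in place of TMM, 61.0% of all called genes were higher in siACLY and 59.5% in siACO1, against 50.1% and 47.9%.

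**Figure D2:**
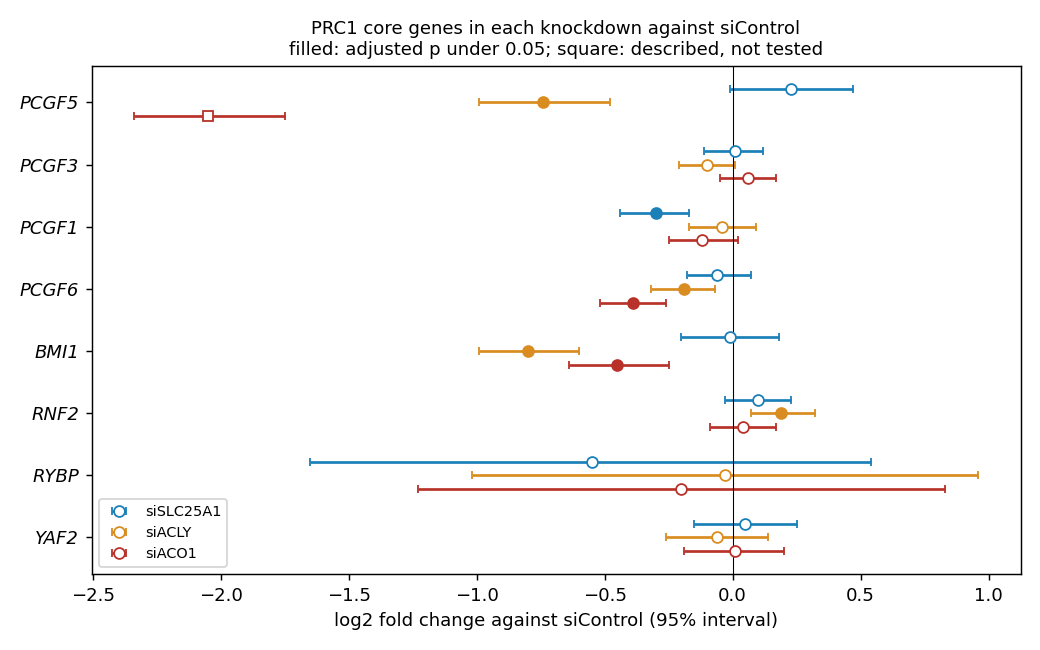
Log2 fold change against siControl (x axis) with its 95% interval for the 8 tested core genes (y axis) in the 3 knockdowns; filled points passed an adjusted p of 0.05 and the open square is PCGF5 in siACO1, described without a test. PCGF5 in siACO1 stands at -2.05, BMI1 reaches -0.80 in siACLY, and the RYBP intervals are the widest.

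Between the knockdowns, 3 of 8 members differed between siSLC25A1 and siACLY (33.8% of all genes called, 17.5% higher and 16.3% lower in siSLC25A1): PCGF5 and BMI1 were higher and PCGF1 lower in siSLC25A1. Between siSLC25A1 and siACO1 it was 3 of 7 without PCGF5 (42.1% of all genes, 21.8% higher and 20.3% lower), with BMI1 (0.44, adjusted p 0.000455) and PCGF6 (0.33, adjusted p 9.62e-05) higher and PCGF1 lower in siSLC25A1. Between siACLY and siACO1 it was 4 of 7 (42.1% of all genes, 21.4% higher and 20.7% lower in siACLY). There PCGF6 (0.20, adjusted p 0.0138) and RNF2 (0.16, adjusted p 0.0447) were higher in siACLY, and BMI1 and PCGF3 were lower. The RNF2 call was lost in 8 settings, among them DESeq2 (adjusted p 0.0661), no filter (adjusted p 0.129), a fit of these groups alone (adjusted p 0.0661) and leaving out any siACLY library or siACO1 replicate 1 or 2, with log2 fold changes of 0.13 to 0.17. This last count fell to 1 without siACLY replicate 1 or siACO1 replicate 2, where the remaining call was BMI1.

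To compare genes with each other, counts were divided by the exon length of each gene, the union of its exons over all annotated transcripts. Which of these transcripts the cells made was not read, so the order between genes can depend on the length used. On this scale, PCGF6 was in siControl the most abundant of the PCGF transcripts counted, at 15.4 CPM per kb, before PCGF1 (11.5), PCGF3 (5.17) and BMI1 (2.56). PCGF5 was the least abundant of the 5 with more than 1 count, at 1.04 CPM per kb. RNF2 stood at 5.79, YAF2 at 0.997 and RYBP at 0.0680 CPM per kb.

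PCGF2 enters the shares at or near 0, where its level cannot be read, and the counts of PCGF6, the largest part, and of BMI1 are uncertain. The shares also depend on the exon length used for each gene. With those limits, PCGF5 made up a small part of the counted PCGF transcripts. Its share was 2.91 ± 0.135% (SD, n = 3) in siControl, 3.66 ± 0.315% in siSLC25A1, 1.97 ± 0.112% in siACLY and 0.839 ± 0.168% in siACO1. PCGF5 and BMI1 shares did not move alike: BMI1 made up 7.18% in siControl, 4.64% in siACLY and 6.29% in siACO1. PCGF3 made up 14.5% in siControl and 18.1% in siACO1, and PCGF6 43.2% and 39.4%. The PCGF5 share differed from siControl by 0.751 percentage points in siSLC25A1 and -0.939 in siACLY, each with an exact two-sided permutation p of 0.1 (adjusted p 0.25 over 5 tests), the smallest that 3 against 3 libraries can give. Without division by length these differences were 1.413 and -1.999 points. Both differences use the control libraries of the comparison that chose PCGF5. The YAF2 share of the RYBP and YAF2 pair was 93.7 ± 2.42% in siControl and differed by 1.78, -0.369 and 0.708 points in siSLC25A1, siACLY and siACO1, with exact permutation p-values of 0.5, 1 and 0.8.

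**Figure D3:**
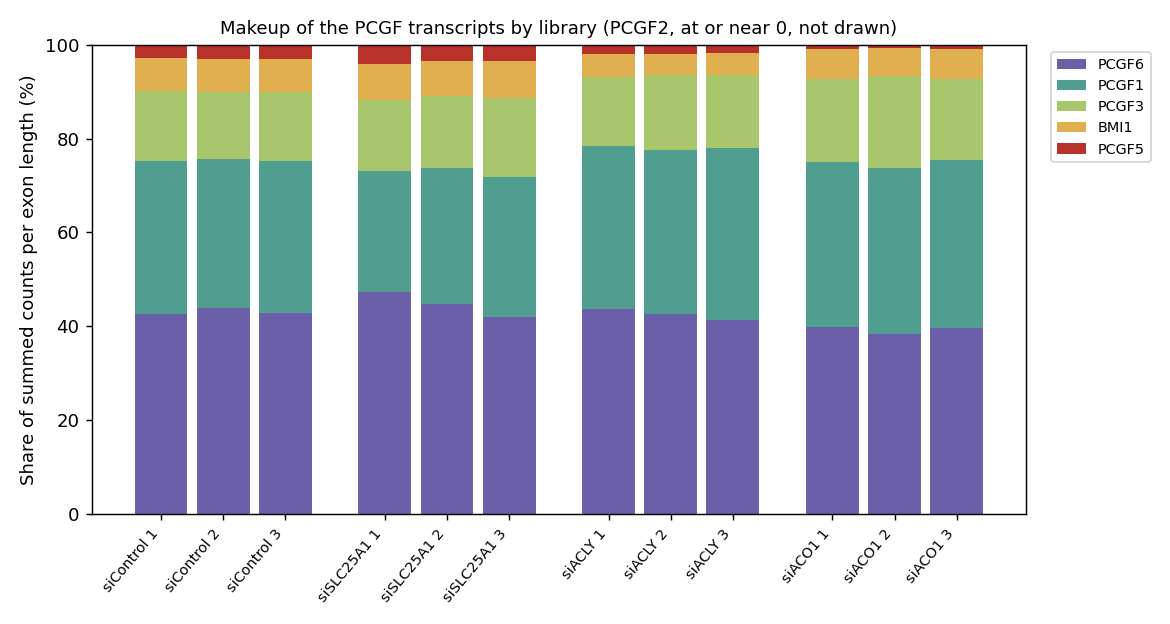
Makeup of the PCGF transcripts in each of the 12 libraries (x axis) as the share of summed counts per exon length in percent (y axis, from 0 to 100). PCGF6 and PCGF1 together hold most of each bar, and the PCGF5 segment at the top narrows from 2.91% in siControl to 0.839% in siACO1 on average. PCGF2, listed at or near 0, is not drawn, and the PCGF6 and BMI1 counts are uncertain.

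The subunits that join PCGF2 or BMI1 in canonical PRC1 changed in both directions. Of 10 tested, 6 were called in siSLC25A1 (3 higher, 3 lower), 9 in siACLY (2 higher, 7 lower) and 7 in siACO1 (3 higher, 4 lower), with median log2 fold changes of 0.05, -0.27 and 0.01. Over all tested genes 19.6%, 36.7% and 37.1% were called. CBX2, a chromodomain reader of methylated H3, fell in all 3 knockdowns, by 0.42, 0.84 and 0.32 on the log2 scale (adjusted p 1.32e-06, 8.76e-13 and 2.55e-05). CBX6, another reader, also fell in all 3 (-0.31, -0.43 and -0.27), and CBX8 fell in siSLC25A1 and siACLY (-0.34 and -0.30).

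PHC1, a polyhomeotic protein whose SAM domain links PRC1 complexes together, rose in siACLY by 1.25 and in siACO1 by 1.01 (SE 0.12 each; adjusted p 2.07e-09 and 1.35e-07). It was at 3.52, 4.11 and 4.43 CPM in siControl, 9.44, 9.97 and 9.21 CPM in siACLY and 8.41, 8.65 and 7.13 CPM in siACO1, with no overlap between controls and either knockdown. Of its 31-base stretches 44.2% also occur in other genes, mainly PHC1P1, so this value is uncertain. PHC2 rose in siSLC25A1 (0.38) and siACLY (0.18) and fell in siACO1 (-0.12), a fall whose call was lost without siControl replicate 1 (-0.11) or 3 (-0.10) or siACO1 replicate 2 (-0.08). SCML2 rose in siSLC25A1 (0.35) and siACO1 (0.30) and fell in siACLY (-0.39). SCMH1 fell in siACLY (-0.37) and siACO1 (-0.33) and rose in siSLC25A1 (0.21, a call lost without siSLC25A1 replicate 3, at 0.17). CBX7, with 21.6% of its exon bases overlapped by other genes, rose in siACO1 (0.40) and fell in siACLY (-0.20, adjusted p 0.0435). The siACLY call of CBX7 was lost without siACLY replicate 2 or 3 or any control library (-0.22 to -0.18).

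Of 21 listed partners of the variant complexes 19 were tested, and 14 of the 19 were called in siACLY, all of them lower (18.3% of all genes were called lower there), with a median of -0.21 beside 0.008 over all genes. The other 5 did not pass the test, among them DCAF7 (0.09), E2F6 (-0.08) and MAX (-0.12). The genes that fell included partners of PCGF1, namely BCOR (-0.48, adjusted p 2.3e-08) and KDM2B (-0.37, adjusted p 5.36e-05), and L3MBTL2 (-0.47, adjusted p 2e-07), a partner of PCGF6. In siSLC25A1 6 were called (31.6%, beside 19.6% of all genes), 1 higher (E2F6, 0.20) and 5 lower, led by TFDP1 (-0.60, adjusted p 1.15e-11) and MAX (-0.44, adjusted p 1.09e-06), the DNA-binding partners of E2F6 and MGA. The E2F6 call was lost without siControl replicate 1 (0.19) or 3 (0.16) or siSLC25A1 replicate 1 or 2 (0.19 each).

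In siACO1 8 of the 19 partners were called, 3 higher and 5 lower; this 42.1% is near the 37.1% of all genes. FBRSL1, a relative of the PCGF3 and PCGF5 partner FBRS, fell by 0.53 on the log2 scale (114 to 79.1 CPM, adjusted p 7.72e-10), and also fell in siSLC25A1 (-0.24) and siACLY (-0.34). DCAF7, a WD-repeat protein found with PCGF3 and PCGF5, rose in siACO1 by 0.34 (180 to 228 CPM, adjusted p 4.06e-08). BCOR fell (-0.39, adjusted p 6.97e-07). BCORL1 was at 48.5, 50.6 and 51.2 CPM in siControl and at 60.5, 56.3 and 50.1 CPM in siACO1, where replicate 3 overlapped the controls. Its log2 fold change of 0.15 (adjusted p 0.0396) was 0.22 without siACO1 replicate 3 and lost its call without any other of these 6 libraries (0.08 to 0.16). Without siACO1 replicate 3, 11 partners were called, and L3MBTL2 (-0.18, adjusted p 0.0152) was then among them. AUTS2, the PCGF5 partner known for recruiting an acetyltransferase, had 5 counts over all libraries, and CSNK2B, a casein kinase 2 subunit, was listed at 0. As for RING1, that listing does not show that CSNK2B was absent from the cells. KDM2B in siACLY was named after its value was seen.

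In PRC2, the methyltransferase for histone H3 lysine 27, 3 of 11 tested genes were called in siSLC25A1 (1 higher, 2 lower), 8 in siACLY (3 higher, 5 lower) and 4 in siACO1 (3 higher, 1 lower), with medians of -0.02, -0.11 and 0.02. These shares are 27.3%, 72.7% and 36.4%, beside 19.6%, 36.7% and 37.1% of all genes. JARID2, an accessory subunit that guides PRC2 to chromatin, fell in siSLC25A1 (-0.37, adjusted p 0.004) and rose in siACLY (0.40, adjusted p 0.000347) and siACO1 (0.56, adjusted p 3.16e-06). MTF2, another guide, fell in siSLC25A1 (-0.30) and rose in siACO1 (0.17), and PHF19 rose in all 3 (0.20, 0.17 and 0.14). The catalytic subunit EZH2 fell in siACLY (-0.23, adjusted p 0.00021), where RBBP4, a histone-binding subunit, also fell (-0.19). The siACO1 count was 1 without siControl replicate 1 and 2 without siControl replicate 2 or 3. The siACO1 calls of MTF2 (0.14 without siControl replicate 1 or 3) and PHF19 (0.13 and 0.11 without siControl replicate 1 or 2) were among those lost.

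Of 8 tested genes that remove ubiquitin from H2A or assist in it, 1 was called in siSLC25A1, 3 in siACLY and 4 in siACO1, with medians of 0.03, -0.10 and -0.05. Over all tested genes the called shares were 19.6%, 36.7% and 37.1%, and the siACLY share of 37.5% is near that background. FOXK1, a forkhead factor that binds the deubiquitinase BAP1, fell in all 3 (-0.14, -0.15 and -0.21), and FOXK2 fell in siACLY (-0.18) and siACO1 (-0.13, a call lost without siControl replicate 1, at -0.12). The deubiquitinases USP21 (0.38, adjusted p 2.34e-06) and MYSM1 (0.21, adjusted p 0.00102) rose in siACO1, and MYSM1 fell in siACLY (-0.15, adjusted p 0.016), a call lost without siControl replicate 1 or 2 (-0.14) or siACLY replicate 3 (-0.13). The siSLC25A1 count, which is FOXK1, was 0 without siControl replicate 1 or 3 or siSLC25A1 replicate 1 or 2, and USP16, another H2A deubiquitinase, was listed at 0. That listing does not show that USP16 was absent from the cells.

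Of 30 genes listed as textbook Polycomb targets, 14 were tested, and 4 (2 higher, 2 lower), 7 (3 higher, 4 lower) and 6 (2 higher, 4 lower) were called in siSLC25A1, siACLY and siACO1. Called shares over all genes were 19.6%, 36.7% and 37.1%, and the siACO1 share of 42.9% is near its background. Their medians were -0.06, 0.16 and -0.13, and the other 16 had at most 58 counts each over the 12 libraries. Among those 16 is CDKN2A, the locus named with BMI1, at 0 counts, so no change in it can be read here. CDKN1A, a cell cycle inhibitor, was at 1.48, 0.999 and 1.32 CPM in siControl and rose in siSLC25A1 (1.63, SE 0.19, adjusted p 1.46e-07) and siACLY (1.52, SE 0.18, adjusted p 1.43e-07). In siACO1 its value was -0.29 (adjusted p 0.342).

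HOXB9, a homeobox factor of body patterning, rose in every knockdown (0.31, 0.34 and 0.41), and the transcription factor genes ZIC2 (-0.32, -0.63 and -0.46) and GATA2 (-0.31, -0.57 and -0.21) fell in every knockdown. The siSLC25A1 call of ZIC2 was lost without siControl replicate 1 (-0.29) or siSLC25A1 replicate 3 (-0.27). PAX2 rose in siACLY (0.64, adjusted p 0.000238). PAX6, with 26.1% of its exon bases overlapped by other genes, rose in siACO1 (0.44) and fell in siACLY (-0.22, adjusted p 0.044), a call lost without siACLY replicate 2 or 3 or any control library (-0.23 to -0.16). EOMES fell in siACO1 (-1.56, SE 0.62, adjusted p 0.0499) from 0.340 CPM, a level of few counts. That call was lost without siControl replicate 1 or 2 or siACO1 replicate 1 or 2 (-1.59 to -1.25), and the value was -2.21 without siACO1 replicate 3. In siACO1 the called targets lay on both sides of 0, and whether the PCGF5 level bore on them was not tested.

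**Figure D4:**
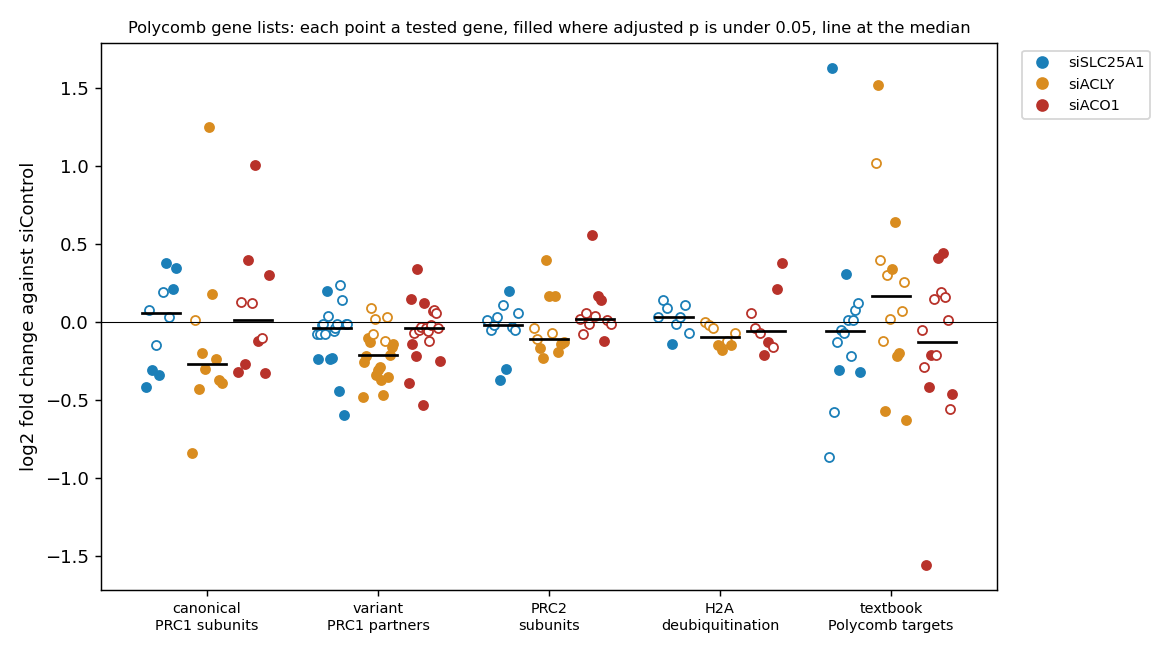
Log2 fold change against siControl (y axis) of each tested gene in the 5 Polycomb lists (x axis) for siSLC25A1, siACLY and siACO1; filled points passed an adjusted p of 0.05 and black lines are medians. In the variant partner list all 14 filled siACLY points lie below 0, whereas the siACO1 points lie on both sides of 0 in each list.

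The genes whose levels were most like that of PCGF5 were ranked by Pearson's r of log2 CPM over the 12 libraries (prior count 2), among 9967 tested genes averaging at least 5 CPM. Those reported here are PPIF (r 0.989), a mitochondrial cyclophilin; STEAP3 (0.985), an iron reductase of endosomes; ETS2 (0.984), a transcription factor; and RAB14 (0.979), a vesicle GTPase. These points share libraries and groups, and siACO1 weighs heavily in r: over the 9 libraries without siACO1 the values were 0.974, 0.950, 0.921 and 0.899.

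These genes were picked for likeness to PCGF5 over the same libraries, so a shared order of group means is largely set by that choice. The sizes of their differences from siControl varied, while the order of the group means was that of PCGF5 in all 4. In siACO1 the log2 fold changes were -0.55 for PPIF, -1.14 for STEAP3, -1.12 for ETS2 and -0.52 for RAB14, beside -2.05 for PCGF5. In siACLY they were -0.16, -0.46, -0.27 and -0.13, beside -0.74, and in siSLC25A1 they were 0.02, 0.27, 0.37 and 0.08, beside 0.23. In siACLY and siACO1 all 4 were closer to siControl than PCGF5, which was itself chosen for its fall in siACO1, so this is a description.

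**Figure D5:**
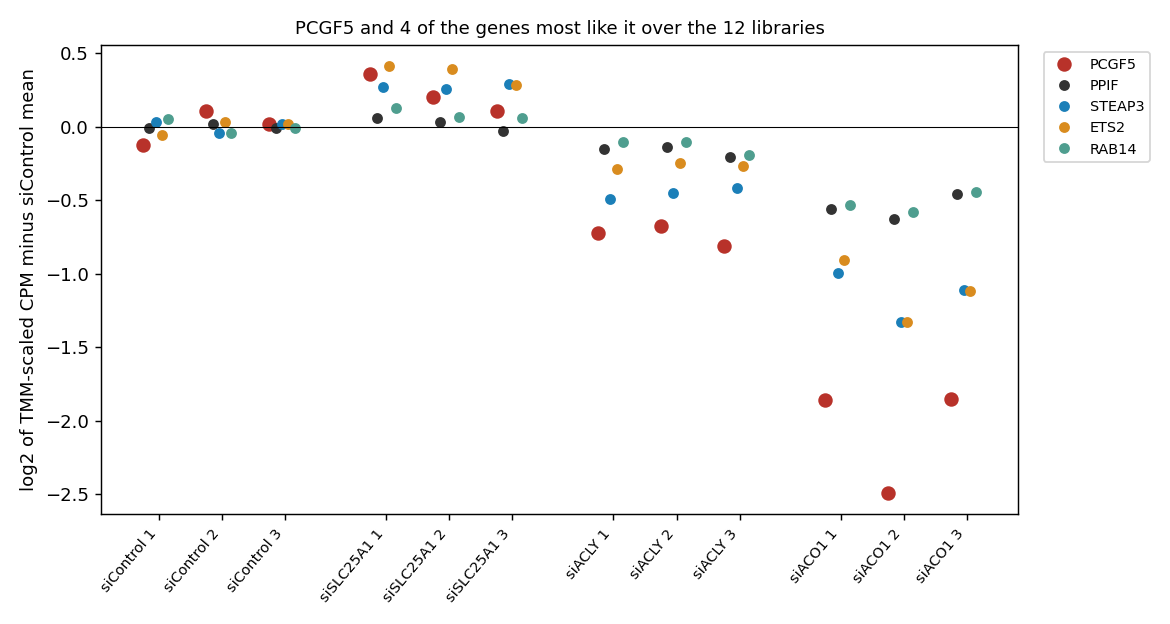
Log2 of TMM-scaled CPM minus the siControl mean (y axis) for PCGF5 and 4 of the genes most like it in each of the 12 libraries (x axis). All 5 genes are below 0 in every siACLY and siACO1 library, and PCGF5 is the lowest point in each of these 6 libraries.

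Of the 3 tested protein-coding genes nearest to PCGF5 on each side on chromosome 10, FGFBP3 was the only one called in siACO1, and it rose. The nearest tested protein-coding gene before its start, RPP30, lies 254.5 kb away and had a log2 fold change of 0.04 in siACO1 (adjusted p 0.694), and KIF20B (-0.07) and PANK1 (0.08) lie over 1388 kb away. After its end, HECTD2 (124.9 kb) was at -0.61 (SE 0.35, adjusted p 0.178) from 0.617 CPM, TNKS2 (514 kb) at -0.02 (adjusted p 0.822), and FGFBP3 (622.3 kb) rose by 0.71 (adjusted p 0.00264). In siACLY, where PCGF5 fell, PANK1 (-0.22, adjusted p 0.00554) and KIF20B (-0.19, adjusted p 0.0284) also fell. TNKS2 rose there (0.22, adjusted p 0.000352), and RPP30 (0.09), HECTD2 (0.52) and FGFBP3 (0.38) did not pass the test.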

How the data were processed

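The authors deposited 1 table of whole-number, unnormalized counts per gene for the 12 libraries, per the file headers and the values. Per the submitters' processing notes, CASAVA, FastQC, Trim Galore, STAR 2.7.0e and DESeq2 were used and the builds GRCm39 and GRCh38 are named, with no role given. The counting tool, the annotation and the use of strand are not given in the sources used here. Symbols matched 62700 of 70116 identifiers. Places, exon lengths and 3′ UTRs are those of GENCODE 29 on GRCh38.

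Genes were kept with filterByExpr, which left 16197, and scaled by TMM. All 12 libraries and 4 groups were fitted in edgeR 4.0.16 (R 4.3.3; limma 3.58.1) with a robust quasi-likelihood model without a replicate block (8 residual degrees of freedom). Two-sided p-values were adjusted by Benjamini-Hochberg over all tested genes, and calls were made below an adjusted p of 0.05. Scripts were tested on simulated data. Members, lists and tests were chosen with earlier results of these data known. Named genes are the members, the targets, up to 2 called genes with the largest rise and up to 2 with the largest fall per list and knockdown, the 5 genes most like PCGF5 and its 3 tested protein-coding neighbours on each side. A gene chosen by likeness is not reported here. KDM2B, and genes named only as listed at or near 0, were added once the values were known. A gene was uncertain where 20% of its exon bases overlapped another gene or 20% of its 31-base stretches occurred elsewhere. Alternatives were size factors by median of ratios, unscaled library totals, the DESeq2 1.42.0 Wald test, no filter, a minimum of 10 counts in every library, fits of 2 groups, a replicate block, and leaving out each library. Intervals cover the spread between libraries in the model.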

Additional observations from a re-analysis of the deposited data

How the results depend on the processing

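Of 334 values of main results under the alternative settings, 318 stayed on their side of the threshold or close to their main value, as did 582 of 604 values of single members. No called value changed sign; 26 values of results that were not called did, mostly of RYBP and YAF2 and including the YAF2 share in siACLY and siACO1 (-1.764 to 0.803 and -1.104 to 3.441 points with a library left out). Without a filter, the count of members between siACLY and siACO1 was 2 in place of 4. The count of H2A deubiquitination genes was 1 in place of 3 in siACLY under library totals, and 3 in place of 1 in siSLC25A1 when only those groups were fitted. Without division by length, the PCGF5 share differed from siControl by 1.413 points in siSLC25A1, -1.999 in siACLY and -4.567 in siACO1; a long transcript weighs more on that scale. The cause of the other differences was not tested.

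With each library left out in turn, called members ranged from 2 to 4 in siACLY against siControl and from 1 to 4 between siACLY and siACO1, PRC2 subunits in siACO1 from 1 to 4, and H2A deubiquitination genes in siSLC25A1 from 0 to 1. Library totals moved the share of higher genes among all called in siACLY from 50.1% to 61.0%, that for siACO1 from 47.9% to 59.5%, and that of siSLC25A1 against siACLY from 51.8% to 41.0%. Same-numbered libraries did not deviate together (r from -0.034 to 0.067 over 18 pairs, none over 0.1), so the numbers do not pair them; with a replicate block the log2 fold change of PCGF5 in siACLY was -0.74 (adjusted p 4.34e-05, edgeR) and 4 members were called there. Depth limits RYBP, with 4 to 26 counts in a library.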
